A study of Mus musculus with 2 samples.

Results

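Dll1, Dll3, Dll4 and Jag1 encode ligands of the Notch receptors, and Lfng and Mfng encode Fringe enzymes that modify those receptors. These 6 genes were chosen by name from the 32285 genes of the deposited matrices, and all 6 were detected. They are described by cell class, by single cell and by library in the peripheral retina of E13.5 mouse embryos.

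Pigmented and albino embryos were compared by single-cell RNA sequencing, with 1 library each and 3 embryos pooled per library. Both kinds carried α-Cre, a Cre transgene active in the distal optic cup, and a TdTomato reporter that Cre switches on. Optic cups were dissociated with papain, TdTomato-positive cells were sorted, and 3' libraries were made with the 10x v2 chemistry. As strain, the labels give Tyrc2j for the pigmented and Swizz ICR for the albino library. Tyrc2j is known as the name of an albino allele of tyrosinase, which conflicts with the title of that library. Titles were followed. Were the titles swapped, the albino over pigmented ratios would invert, and pigmentation cannot be told apart from strain, sex of the pool and library.

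There were 6089 barcodes and 69965728 UMIs in the pigmented matrix (unique molecular identifiers, each a counted RNA molecule), and 3676 barcodes and 46271969 UMIs in the albino one. After filtering, 5737 pigmented cells (median 10340 UMIs) and 3457 albino cells (median 11175 UMIs) remained. The libraries shared 8 barcodes. The pools differed in sex: 46.1% of the pigmented cells and 0% of the albino cells had a Y-linked UMI without Xist. With 1 library per kind of embryo there is no replicate, so no test between them was possible. All intervals given are 95% intervals that cover counting error only.

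Notch signalling passes between cells in contact. A ligand on the sending cell pulls on a Notch receptor of its neighbour, proteases cut the receptor, and its inner part enters the nucleus, binds Rbpj and switches on Hes and Hey genes that hold back differentiation. In the retina this keeps neighbours of a newborn neuron in the progenitor state. Fringe enzymes lengthen sugars on the receptor and shift its response between Delta and Jagged ligands. Dll3 differs from the other Delta proteins in that it is known to act inside the cell and not as an activating ligand.

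Cells were grouped into 29 clusters with 44 Notch pathway genes, the 6 genes among them, kept out of the clustering, and clusters were named from marker lists. Of the clusters, 5 stayed unnamed (552 pigmented and 303 albino cells). Cells with markers of tissue outside the retina were also present, with 219 and 123 mesenchyme-like, 26 and 29 macrophage-like and 7 and 43 surface ectoderm-like cells. CMZ-like cells carry markers of the ciliary margin zone, the rim of the optic cup (560 pigmented and 226 albino cells). RPC-like cells are retinal progenitors (2073 and 1110). Neurogenic-like cells carry Atoh7, Neurog2 and other genes of the step from progenitor to neuron (1060 and 579). RGC-like cells are young retinal ganglion cells (728 and 793), and photoreceptor-like cells are young photoreceptors (325 and 159). Levels are the UMIs of a gene summed over a class scaled to 1000000 UMIs of that class (CPM). They are compared within a gene only.

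Among the Delta genes, Dll1 RNA was highest in neurogenic-like cells and present at a lower level in progenitors. Neurogenic-like cells held 94.97 CPM (89.3 to 101) in the pigmented and 87.6 CPM (80.5 to 95.1) in the albino library. Photoreceptor-like cells followed at 36.8 and 41.7 CPM, then amacrine/horizontal-like cells at 27.9 and 19.1 CPM and RPC-like cells at 19.3 and 17.1 CPM. Neighbours in this order had overlapping intervals in both libraries below the neurogenic-like class, whereas photoreceptor-like and RPC-like cells did not overlap. RGC-like cells held 9.54 and 9.96 CPM, CMZ-like cells 7.11 and 5.24 CPM, and mesenchyme-like cells 3.83 and 0.617 CPM. Neurogenic-like cells thus stood 4.92-fold above RPC-like cells in the pigmented and 5.11-fold in the albino library.

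Dll4 was the most restricted of the 6 genes by its share of UMIs. Of its UMIs in kept cells, 78.9% in the pigmented and 77.3% in the albino library lay in neurogenic-like cells, against 57.0% and 53.7% for Dll1. Its level there was 69.6 CPM (64.8 to 74.7) in the pigmented and 66.5 CPM (60.4 to 73.1) in the albino library. Photoreceptor-like cells held 31.8 and 32.1 CPM. RPC-like cells held 1.07 and 0.793 CPM, from 24 and 10 UMIs, so the ratio of neurogenic-like over RPC-like cells was 64.9 and 83.9. RGC-like cells held 4.98 and 2.16 CPM. In CMZ-like cells Dll4 stood at 0.736 and 0.617 CPM, from 6 and 2 UMIs. Amacrine/horizontal-like cells held 5.39 CPM (1.98 to 11.7, from 6 UMIs) in the pigmented library and had no Dll4 UMI in the albino library. A count of 0 allows up to 4.77 CPM there by the limit of 3 counts and 5.86 CPM by the exact interval, so the libraries were not separated in this class.

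Dll4 lies at chr2:119325784-119335962 on the plus strand of GRCm38, and its exons overlap those of Gm14207, a gene annotated on the minus strand. Gm14207 had 78.1 CPM in pigmented and 81.7 CPM in albino neurogenic-like cells, 134 and 119 CPM in photoreceptor-like cells, and 1.47 and 1.67 CPM in RPC-like cells. No source used here gives the strand setting of the counting, so reads of the stretch that both genes share may not have been told apart. Gm14207 spans chr2:119321187-119326194, so that stretch lies at the start of both genes. In single neurogenic-like cells, Gm14207 was detected in 56.1% of Dll4-positive and 19.9% of Dll4-negative pigmented cells and in 59.8% and 21.9% of albino cells. The order of classes differed between the genes, since Dll4 was higher in neurogenic-like than in photoreceptor-like cells and Gm14207 was not. Dll1, at chr17:15367354-15376872 on the minus strand, overlaps exons of A930024N18Rik on the plus strand, which was not analysed here.

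Dll3 had another order of classes. Its highest level was in photoreceptor-like cells, at 129 CPM (116 to 143) and 114 CPM (98.1 to 132). Neurogenic-like cells followed at 51.7 and 39.9 CPM, and RGC-like cells at 23.8 and 17.1 CPM. RPC-like cells, at 5.36 and 4.76 CPM, did not stand beyond the counting intervals of mesenchyme-like cells, at 4.15 and 4.32 CPM. The mesenchyme-like values rest on 13 and 7 UMIs. CMZ-like cells held 1.35 CPM (0.673 to 2.41) and 0.925 CPM (0.191 to 2.70). These lay below the RPC-like intervals of 4.45 to 6.41 and 3.63 to 6.12 CPM. Dll3 lies at chr7:28293553-28302238 on the minus strand.

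Jag1, the Jagged ligand of the group, was high in both CMZ-like and neurogenic-like cells. CMZ-like cells held 29.3 CPM (25.7 to 33.3) in the pigmented and 25.3 CPM (20.1 to 31.4) in the albino library, and neurogenic-like cells held 24.3 and 18.6 CPM. CMZ-like cells thus had the higher level in both libraries. The intervals of these 2 classes overlapped, and their ratio was not computed. RPC-like cells held 5.36 and 4.68 CPM. Mesenchyme-like cells held 15.6 and 12.3 CPM and RGC-like cells 10.1 and 9.70 CPM. Jag1, at chr2:137081456-137116644 on the minus strand, thus was lower in progenitors than in either of the classes above. CMZ-like cells gave 25.8% of the Jag1 UMIs in the pigmented and 15.1% in the albino library, where they were also a smaller share of the cells (9.76% and 6.54%). Cluster 9 (258 and 126 cells) scored highest for CMZ markers but stayed unnamed, since its lead over the RPC score was too small. It held 24.0 and 24.5 CPM of Jag1, a further 11.2% and 11.4% of the Jag1 UMIs.

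The Fringe genes differed from each other. Lfng, at chr5:140607320-140615545 on the plus strand, was present in RPC-like cells at 13.54 CPM (12.1 to 15.2) and 12.5 CPM (10.7 to 14.6) and at 46.7 and 39.6 CPM in neurogenic-like cells. In RGC-like cells it stood at 3.45 and 1.04 CPM, with intervals that overlapped those of mesenchyme-like cells (1.91 and 0.617 CPM). Amacrine/horizontal-like cells held 48.5 and 17.5 CPM. Within the photoreceptor-like class it was split. Cluster 12, led by Neurod4, Prdm1 and Crx, held 58.1 and 43.6 CPM of Lfng, whereas cluster 19, led by the phototransduction genes Gngt2 and Pdc, had 1 Lfng UMI in the pigmented library and none in the albino library. Dll3 did not share that split, with 126 and 103 CPM in cluster 12 and 134 and 143 CPM in cluster 19.

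Mfng, at chr15:78755882-78773475 on the minus strand, had 172 CPM (164 to 180) in pigmented and 158 CPM (149 to 168) in albino neurogenic-like cells, 14.1 and 15.02 times the level of RPC-like cells. Unlike Lfng it stayed high in RGC-like cells, at 108 and 73.9 CPM. Among those, cluster 7 (led by Pou4f2 and Isl1) held 202 and 186 CPM, cluster 3 (which carries Nefm and Elavl4) 106 and 84.3 CPM, and clusters 11 and 20, which carry Sncg and Sst, between 9.22 and 12.7 CPM. Mfng thus stayed high in some ganglion cell clusters and was low in others of the same library.

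**Figure D1:**
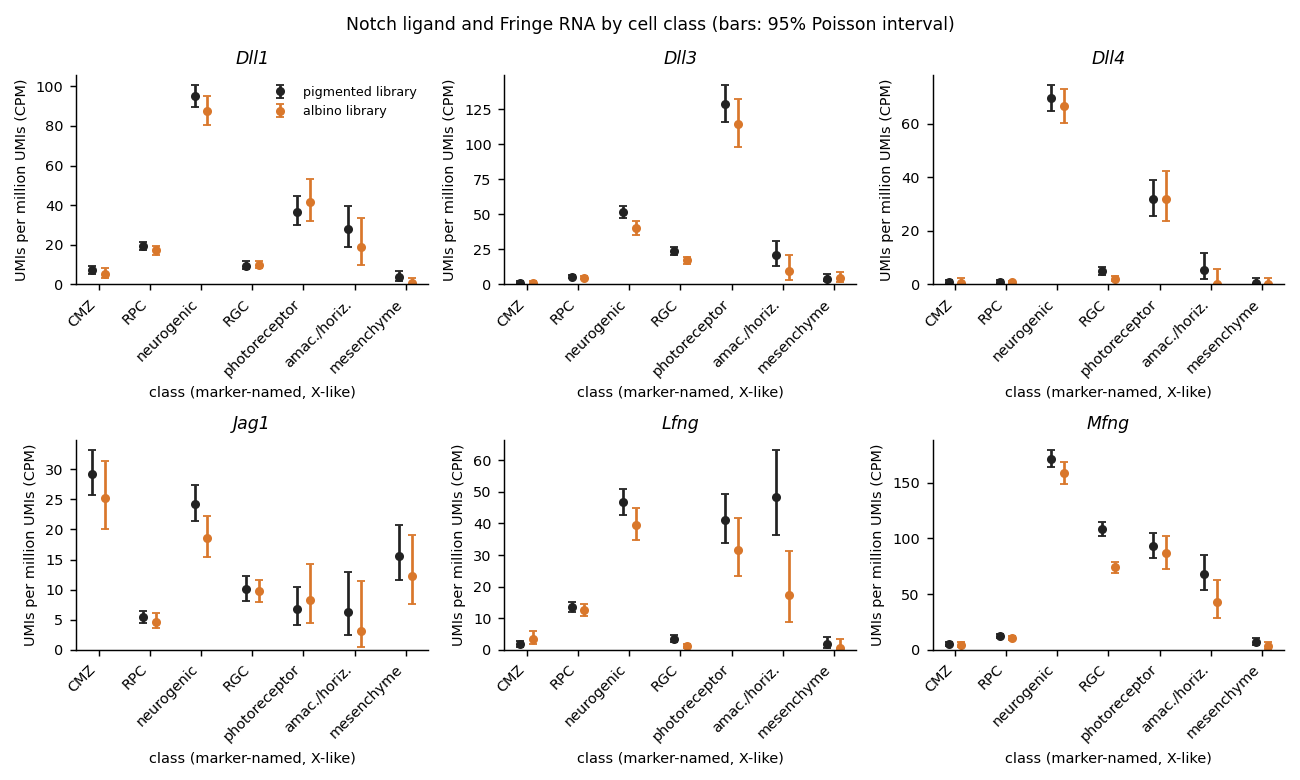
Level of each gene (CPM, linear axis from 0) in 7 marker-named classes, with the pigmented library in black, the albino library in orange and 95% Poisson intervals. Dll4 is near 0 outside the neurogenic-like and photoreceptor-like classes, Dll3 peaks in photoreceptor-like cells, Jag1 is high in CMZ-like and neurogenic-like cells, and Mfng stays high in RGC-like cells.

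All 6 genes were at least 1.5-fold higher in neurogenic-like than in RPC-like cells in both libraries. At Leiden resolution 0.5 the log2 ratio of Jag1 in the albino library was 0.58, just under 1.5-fold. Of all genes with at least 50 UMIs in that comparison, 11.4% in the pigmented and 12.1% in the albino library were that much higher. The ratio ranged from 3.45 (Lfng) to 64.9 (Dll4) in the pigmented and from 3.16 (Lfng) to 83.9 (Dll4) in the albino library, with Dll3 at 9.65 and 8.39 and Jag1 at 4.53 and 3.97. The class was named from Atoh7, Neurog2 and other markers that are known to be expressed together with Delta genes, so this comparison describes the class and is no independent result about the genes.

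Free RNA in the droplets can give UMIs in cells that do not express a gene, so shares of cells with a UMI were set beside mesenchyme-like cells, which lie outside the retina. Each cell was thinned to 5800 UMIs, which left out 549 pigmented and 387 albino cells. The share with a Dll4 UMI was 23.8% and 20.7% of neurogenic-like cells and 0 of 209 and 0 of 113 mesenchyme-like cells. For Dll1 the shares were 35.4% and 33.6% against 1.44% and 0%. For Dll3 they were 22.2% and 17.0% against 0.957% and 2.65%. Before thinning, the median depth was 9667.5 and 10376 UMIs in neurogenic-like and 13412 and 12679 UMIs in mesenchyme-like cells, and Dll4 was then seen in 31.7% and 30.4% of neurogenic-like cells. RPC-like cells had Dll4 in 0.478% and 0.497%. Surface ectoderm-like cells, also outside the retina, had higher shares in the albino library, where 39 cells remained after thinning and the median depth before it was 49712 UMIs. There Dll3 was seen in 12.8%, Mfng in 38.5% (against 55.1% of neurogenic-like cells) and Dll1 and Dll4 in 2.56% each. Unthinned, Dll1 was seen in 37.2% and Dll3 in 41.9% of the 43 surface ectoderm-like cells.

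The neurogenic-like class was made of 5 clusters, and the genes peaked in different ones. Cluster 8 is led by Neurog2, Sstr2, Olig2 and S-phase histone genes. Cluster 16 is led by Gal, Insm2 and the mitotic genes Cdc20 and Cenpa. Cluster 21 is led by Cck, Gadd45g and Neurog2, and cluster 18 by Pcdh17, Onecut1 and Otx2. Cluster 2, the largest with 390 and 213 cells, is led by Gal, Dlx1 and Insm2 and would lose its name if the naming rule asked for a wider margin over the next class.

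Dll1 was flat across the first 4 of these clusters and low in cluster 2. It had 125 and 121 CPM in cluster 16, 123 and 115 CPM in cluster 8, 134 and 110 CPM in cluster 21 and 122 and 96.0 CPM in cluster 18, with overlapping intervals within each library, against 38.9 and 41.8 CPM in cluster 2. Dll4 reached 196 CPM (175 to 220) and 156 CPM (128 to 188) in cluster 18, from 85.6 and 101.8 CPM in cluster 8 and 25.4 and 39.4 CPM in cluster 16. Dll3 had the same peak, with 144 and 110 CPM in cluster 18 and 32.5 and 28.1 CPM in cluster 8.

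Jag1 and Lfng were low in cluster 18. Jag1 had 5 UMIs there in the pigmented and 1 in the albino library (3.19 and 1.39 CPM), against 25.2 and 19.0 CPM in cluster 8. Lfng had 14.7 CPM (9.30 to 22.002) and 4.18 CPM (0.861 to 12.2) in cluster 18, against 50.8 and 40.5 CPM in cluster 8 and 62.1 and 50.9 CPM in cluster 2, and cluster 21, at 19.5 and 14.1 CPM, overlapped it. Mfng was highest in cluster 2, at 255 and 223 CPM, and between 95.7 and 176 CPM in the other 4. In both libraries the cluster with the highest Dll3 and Dll4 levels was therefore the one with the lowest Jag1 and Lfng levels of the 5.

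**Figure D2:**
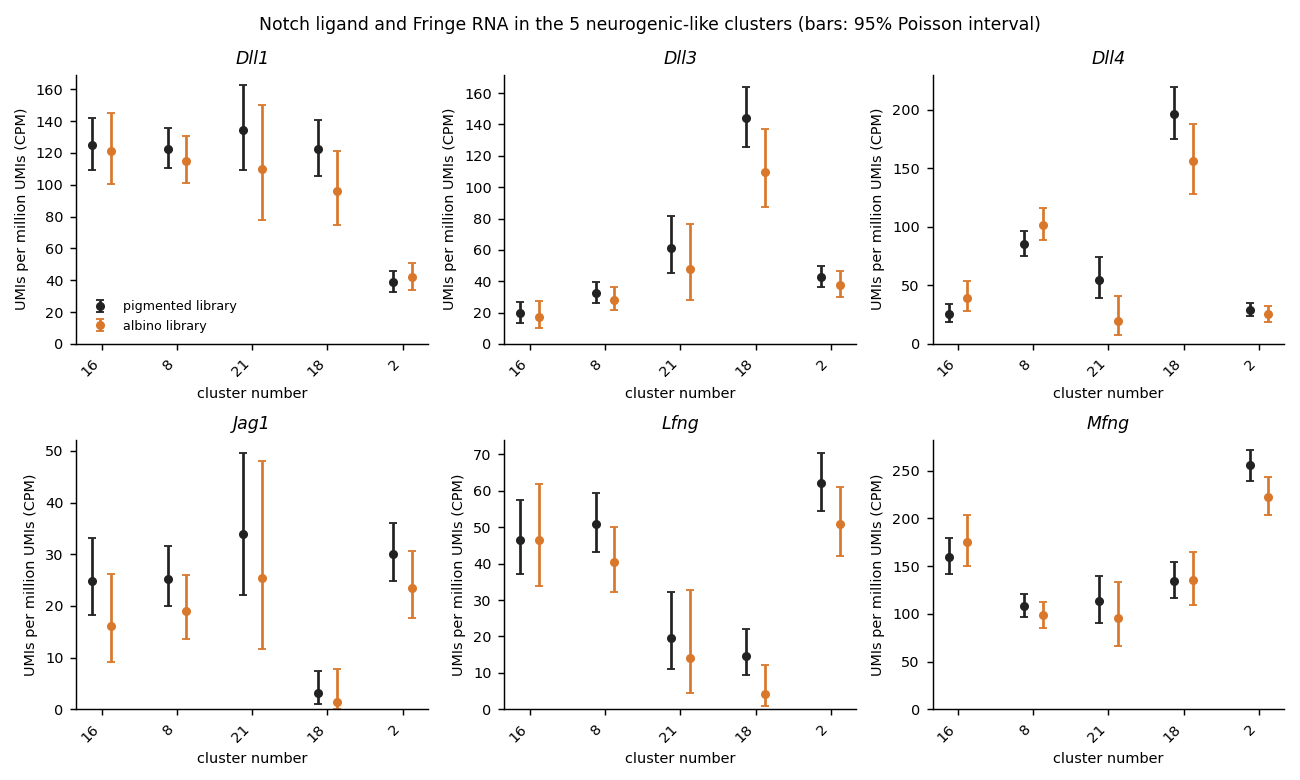
Level of each gene (CPM, linear axis from 0) in the 5 neurogenic-like clusters, with the pigmented library in black, the albino library in orange and 95% Poisson intervals. Dll3 and Dll4 peak in cluster 18, where Jag1 and Lfng are lowest, while Lfng and Mfng are highest in cluster 2.

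Single neurogenic-like cells were then examined for more than 1 Delta gene. At equal depth, 42.1% (39.0 to 45.2) of 994 pigmented and 44.7% (40.5 to 49.0) of 541 albino cells had no UMI of Dll1, Dll3 or Dll4. Exactly 1 of them was seen in 38.4% and 40.9%, 2 in 15.5% and 12.8%, and all 3 in 4.02% (2.89 to 5.44) and 1.66% (0.763 to 3.13). If the genes were detected independently at their own shares, 18.7 pigmented and 6.41 albino cells would hold all 3, and 40 and 9 were counted. A gene with few RNA copies is often missed in a cell, and free RNA can add a UMI, so these are shares of detection and not of expression.

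The pairs of Delta genes behaved differently. Dll4 was seen in 39.4% (32.9 to 46.1) of the 221 Dll3-positive pigmented cells and in 19.4% (16.7 to 22.4) of the Dll3-negative ones. In the albino library these shares were 28.3% (19.4 to 38.6) of 92 cells and 19.2% (15.6 to 23.1), and their intervals overlapped. Dll4 was seen in 29.3% of Dll1-positive and 20.9% of Dll1-negative pigmented cells, and in 23.1% and 19.5% of albino cells. Dll3 was seen in 23.9% of Dll1-positive and 21.3% of Dll1-negative pigmented cells, and in 15.4% and 17.8% of albino cells. In the pigmented library the intervals for Dll4 did not overlap between cells with and without Dll3, or between cells with and without Dll1. In the albino library all of them overlapped.

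Of clusters 18 and 8, only cluster 8 of the pigmented library had a wide gap in Dll4 between Dll3-positive and Dll3-negative cells. The other neurogenic-like clusters are not given here. Within cluster 18, where both genes were frequent, Dll4 was seen in 63.2% of Dll3-positive and 61.8% of Dll3-negative pigmented cells and in 53.8% and 52.9% of albino cells. Within cluster 8 the shares were 51.2% (35.1 to 67.1) of 41 cells and 25.8% in the pigmented library, and 33.3% (15.6 to 55.3) of 24 cells and 30.4% in the albino library. Cells with all 3 genes lay in cluster 18 in 47.5% of the pigmented and 55.6% of the albino cases, against 3.11% and 4.55% of the cells with none, which lay mostly in cluster 2 (52.4% and 52.1%).

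**Figure D3:**
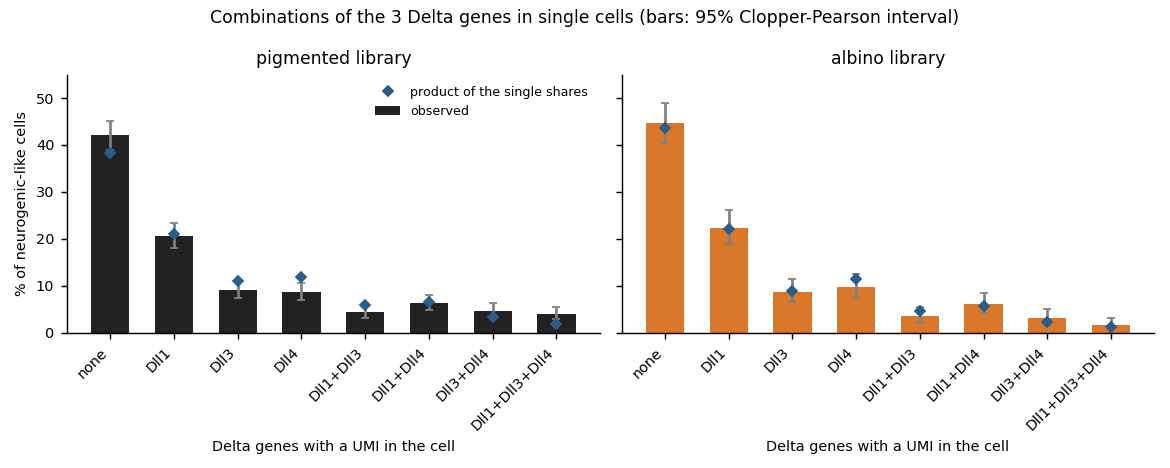
Percent of neurogenic-like cells (thinned to 5800 UMIs) with each combination of Dll1, Dll3 and Dll4, as bars with 95% Clopper-Pearson intervals, and the percent given by the product of the single shares as blue diamonds. In the pigmented library the bar for all 3 genes, at 4.02%, lies above the product, and the bars for Dll3 alone and Dll4 alone lie below it.

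Among all 15 pairs of the 6 genes, Dll4 and Lfng were the pair seen together least often for their own shares, and they were singled out after these values were seen. Lfng was detected in 6 of 237 Dll4-positive pigmented cells (2.53%, 0.935 to 5.43) and in 22.3% (19.4 to 25.5) of the Dll4-negative ones. In the albino library it was detected in 1 of 112 Dll4-positive cells (0.893%, 0.0226 to 4.87) and in 18.4% (14.9 to 22.4) of the others. The product of the single shares would give 41.7 and 16.6 such cells. Without thinning the counts were 27 of 336 cells (8.04%) and 7 of 176 cells (3.98%), against 32.0% and 29.0%.

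Within cluster 8 of both libraries and cluster 2 of the pigmented library the intervals for Lfng with and without Dll4 did not overlap. In cluster 8, Lfng was detected in 1 of 75 Dll4-positive pigmented cells and 0 of 53 albino ones, against 26.3% and 21.8% of the Dll4-negative cells of the same cluster. In cluster 2 it was detected in 1 of 47 and 0 of 16, against 25.1% and 20.3%, and the albino intervals overlapped. In cluster 18, where Lfng was rare, the shares were 2 of 90 and 0 of 32, against 9.26% and 7.14%, with overlapping intervals. In cluster 16 they were 1 of 13 and 1 of 9, against 19.0% and 17.6%, and in cluster 21 they were 1 of 12 and 0 of 2, against 16.1% and 3.85%, all overlapping. Mfng, the other Fringe gene, was detected in 53.2% of Dll4-positive and 62.7% of Dll4-negative pigmented cells and in 50% and 56.4% of albino cells. Dll1 and Lfng had overlapping intervals, with Lfng in 14.5% of Dll1-positive and 19.3% of Dll1-negative pigmented cells and in 12.6% and 15.9% of albino cells.

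Dll4-positive and Lfng-positive cells differed in their transcription factors. Among neurogenic-like cells, those with Dll4 had Neurog2, a proneural factor, in 80.2% and 89.3%, against 34.9% and 28.9% of those without Dll4. Otx2, a factor of photoreceptor precursors, was seen in 74.7% and 80.4% against 24.4% and 27.3%, and Olig2 in 34.2% and 36.6% against 7.79% and 7.46%. Hes5, a target of Notch signalling, was seen in 32.9% and 25.9% of Dll4-positive cells against 64.5% and 66.0%. Neurog2 and Olig2 are among the markers that named the class, so their overall level in it was fixed by the rule, and their split within it was not. These shares pool clusters, and clusters 8 and 18, the highest in Dll4, have Neurog2 among their leading genes. Shares of these factors within a cluster are not given here for Dll4.

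Cells with Lfng had the opposite profile. Of the neurogenic-like cells with Lfng, 94.3% (89.7 to 97.2) in the pigmented and 97.5% (91.3 to 99.7) in the albino library had Hes5, against 49.0% and 50.8% of those without Lfng. Hes1, another Notch target, was seen in 34.3% and 43.8% against 14.0% and 14.8%. Neurog2 was seen in 16.6% and 6.25% against 51.9% and 47.5%, and Otx2 in 9.71% and 11.2% against 42.1% and 43.0%. Within cluster 8 Hes5 was detected in 97.9% of Lfng-positive and 48.3% of Lfng-negative pigmented cells and in 100% and 46.6% of albino cells.

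Dll1 and Mfng differed by the cell cycle gene Top2a, in shares pooled over the neurogenic-like clusters. The mitotic gene Top2a was seen in 76.1% and 75.3% of Dll1-positive neurogenic-like cells, against 48.6% and 52.6% of Dll1-negative ones. For Mfng the order was turned, with Top2a in 48.8% and 51.7% of positive and 73.0% and 70.8% of negative cells. Mfng-positive cells more often had Pou4f2, a ganglion cell factor, in 26.5% and 27.2% against 14.2% and 15.6%. Dll1-positive cells had Pou4f2 in 13.4% and 15.4% against 26.2% and 25.3%. Cluster 2 had the highest Mfng and the lowest Dll1 level of the neurogenic-like clusters, and its part in these shares was not tested.

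**Figure D4:**
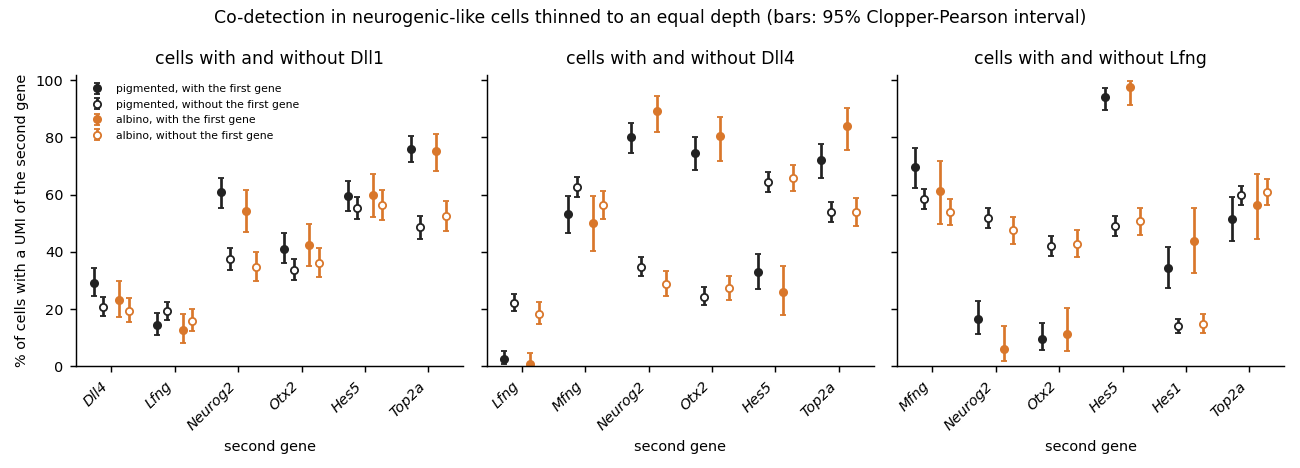
Percent of neurogenic-like cells (thinned to 5800 UMIs) with a UMI of a second gene, among cells with (filled) and without (open) Dll1, Dll4 or Lfng, for the pigmented (black) and albino (orange) libraries with 95% Clopper-Pearson intervals. Lfng is nearly absent from Dll4-positive cells, and Hes5 is low in Dll4-positive and near 100% in Lfng-positive cells.

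Since Dll4 and Lfng split neurogenic-like cells by Neurog2 and Hes5, the bases before their starts are shown with 2 motifs. CANNTG is the E-box bound by factors of the Neurog2 family, and GTGGGAA is a core bound by Rbpj. The sequences come from RefSeq's promoter table for GRCm38.p6, which matched 5 of the 6 genes (not Mfng), are given without bases of annotated exons, and run on the plus strand. Capitals mark CANNTG and GTGGGAA on either strand. Distances are counted from the start in RefSeq's promoter table. The Dll4 sequence is chr2:119325565-119325783 and ends 1 base before that start. The Lfng sequence is chr5:140607091-140607319 and ends 22 bases before that start, which for Lfng lies downstream of the gene start given above.
Dll4: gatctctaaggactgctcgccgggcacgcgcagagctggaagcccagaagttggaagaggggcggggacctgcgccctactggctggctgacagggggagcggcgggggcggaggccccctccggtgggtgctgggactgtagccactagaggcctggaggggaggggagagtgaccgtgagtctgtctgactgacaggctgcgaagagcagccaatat
Lfng: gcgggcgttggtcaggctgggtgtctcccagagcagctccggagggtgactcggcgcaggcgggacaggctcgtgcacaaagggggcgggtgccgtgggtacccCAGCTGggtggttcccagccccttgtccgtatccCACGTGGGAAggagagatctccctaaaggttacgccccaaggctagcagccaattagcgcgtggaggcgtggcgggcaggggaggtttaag
The Lfng window holds CAGCTG at 146 bases before the start, CACGTG at 112 bases and GTGGGAA at 109 bases, the last 2 overlapping. The 250 bases before the Dll4 start hold neither motif. Of 32851 promoters of the table, 66.2% hold CANNTG in the 250 bases before the start, 13.0% hold CAGCTG, 6.02% hold CACGTG and 5.42% hold GTGGGAA, each searched on both strands. Dll4 does hold CACTAG, a form of the N-box CACNAG bound by Hes proteins, at 75 bases before its start, and Lfng holds one as CTCGTG at 181 bases. An N-box was found in 36.7% of promoters. A match is a string of letters and no evidence of binding, and these windows leave out distant enhancers.

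The libraries were then compared within each class by ratios of CPM, which cannot tell pigmentation apart from strain, sex of the pool and library. In neurogenic-like cells all 6 ratios of albino over pigmented were below 1, and none reached 1.5-fold. Of 10534 genes with at least 50 UMIs, 3.13% did. The ratio was 0.771 (0.663 to 0.895) for Dll3, 0.764 (0.611 to 0.951) for Jag1, 0.849 (0.728 to 0.988) for Lfng and 0.922 (0.854 to 0.996) for Mfng. Dll1, at 0.922 (0.831 to 1.02), and Dll4, at 0.956 (0.847 to 1.08), had intervals that included 1. By cluster, the Dll4 level was higher in the albino library in clusters 8 and 16 and lower in clusters 2, 18 and 21. The widest gap was in cluster 21, with 54.7 CPM from 42 UMIs and 19.7 CPM from 7 UMIs. The intervals of the Dll4 levels overlapped between the libraries in each of these clusters, in cluster 21 only just (39.4 to 74.0 and 7.92 to 40.6 CPM). Such overlap does not mean that the interval of the ratio includes 1, and ratio intervals by cluster are not given here for Dll4. The log2 ratio of Dll4 ran from -0.27 to 0.15 over 13 alternatives and was above 0 in 6 of them. Jag1 was at least 1.5-fold lower in the albino library in 2 of the 13. The median log2 ratio of the 6 genes was -0.18, beside -0.02 over all genes.

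The value for Dll3 changed when cells were selected by Xist. The albino pool was almost wholly Xist-positive and the pigmented pool was mixed. With cells that had Xist and no Y-linked UMI in both libraries, the log2 ratio of Dll3 in neurogenic-like cells was 0.04 (-0.28 to 0.37), against -0.37 with all cells, so the direction turned. This selection keeps 29.2% of the pigmented cells and may keep some of the pooled embryos and not others, so sex and embryo cannot be told apart. For Dll4 and Mfng it moved the other way, to -0.27 (-0.50 to -0.03) from -0.07 and to -0.25 from -0.12. No ratio of these genes in neurogenic-like cells can be told apart from sex, strain and library.

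In RPC-like cells the 5 genes with enough UMIs had ratios from 0.865 (Mfng) to 0.925 (Lfng), all with intervals that included 1, and none reached 1.5-fold, as 2.08% of all genes did. In CMZ-like cells Jag1 had a ratio of 0.863 (0.663 to 1.11), with 0 of 3 tested genes past 1.5-fold against 5.18% of all genes. In photoreceptor-like cells the 5 tested genes had ratios from 0.767 (Lfng) to 1.14 (Dll1), also with intervals that included 1 and none past 1.5-fold, against 5.31% of all genes. For the tested genes a difference between the libraries in these classes was not detectable at this depth.

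Among the retinal classes, ratios past 1.5-fold with intervals that excluded 1 were found in RGC-like and amacrine/horizontal-like cells. In RGC-like cells Dll4 had a ratio of 0.435 (0.257 to 0.718), from 49 and 25 UMIs, which was 1 of 5 tested genes, where 3.5% of all genes passed. With cells classed by marker scores in place of clusters, the log2 ratio of Dll4 was -0.48, against -1.20. Lfng stood at 0.301 (0.142 to 0.596) there, from 34 and 12 UMIs, under the minimum of 50. Mfng stood at 0.684 (0.624 to 0.749) and Dll3 at 0.721 (0.594 to 0.876). The 2 libraries filled this class differently, with 303 of 728 pigmented cells and 187 of 793 albino cells in cluster 7, the RGC-like cluster with the most Mfng, Dll3 and Dll4, and 234 and 333 cells in cluster 3. Within cluster 7 Mfng had a ratio of 0.920 (0.813 to 1.04), Dll3 of 0.941 (0.725 to 1.22) and Dll4 of 0.655 (0.347 to 1.19). Within cluster 3 Mfng held 106 CPM (95.5 to 118) in the pigmented and 84.3 CPM (76.1 to 93.1) in the albino library. Those intervals did not overlap, whereas those of Dll3 and Dll4 in cluster 3 and of Mfng in clusters 11 and 20 did. The part of the cluster mix in the class ratios was not tested. In amacrine/horizontal-like cells, from 142 and 76 cells, Lfng had a ratio of 0.360 (0.170 to 0.696), from 54 and 11 UMIs, and Mfng of 0.628 (0.389 to 0.986), where 7.76% of all genes passed. In surface ectoderm-like cells Mfng had no UMI in 7 pigmented cells and 153 UMIs in 43 albino cells, too few pigmented cells to give a fold.

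Over all kept cells the 6 ratios lay between 0.757 (Lfng) and 0.960 (Mfng), with a median log2 ratio of -0.24 beside -0.05 over all genes, and none passed 1.5-fold where 7.23% of genes did. The share of neurogenic-like cells, 18.5% in the pigmented and 16.7% in the albino library, moved with these sums, and its part in them was not tested.

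**Figure D5:**
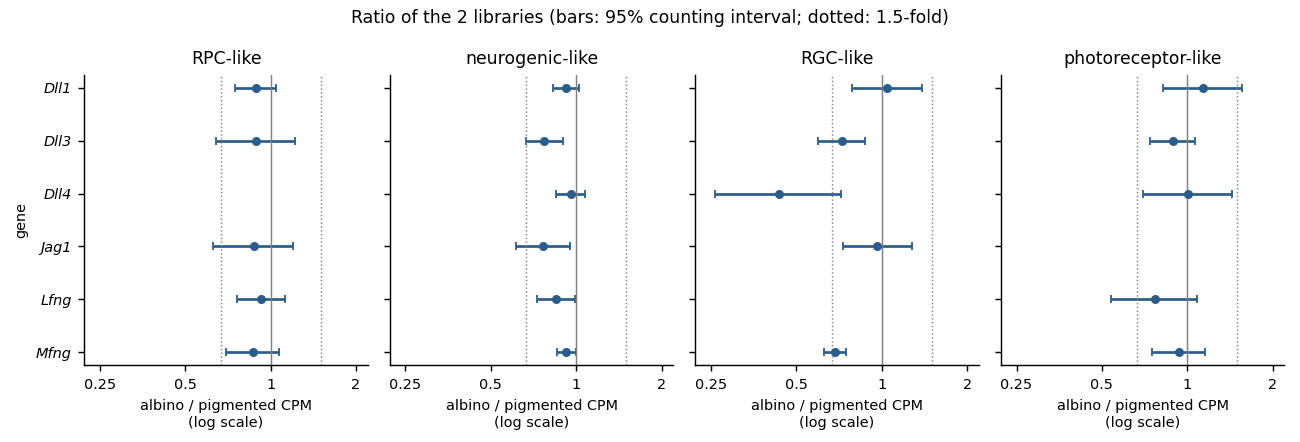
Ratio of albino over pigmented CPM (log axis) for each gene with at least 50 UMIs in 4 classes, with 95% counting intervals, a solid line at 1 and dotted lines at 1.5-fold. In neurogenic-like cells all 6 points lie left of 1 and inside the dotted lines, and in RGC-like cells Dll4 lies beyond the line.

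The other 38 genes of the pathway list were compared in the same way. In neurogenic-like cells 31 had enough UMIs, 1 was at least 1.5-fold higher in the albino library (0.911% of all genes were) and 1 that much lower (2.22% of all genes). The higher one was Furin, a protease that cuts Notch on its way to the surface, at 1.71 (1.13 to 2.57), named after its value was seen. The lower one was Maml2, a coactivator of the Notch complex, at 0.607 (0.320 to 1.09). Their median log2 ratio was -0.03. Among the receptors, Notch1 had 151 and 146 CPM there, a ratio of 0.971 (0.896 to 1.05). Of the nuclear genes, Rbpj stood at 0.980 (0.934 to 1.03). Of the targets, Hes5 stood at 0.938 (0.903 to 0.974) and Hes1 at 0.986 (0.883 to 1.10).

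Between progenitors and neurogenic-like cells the pathway genes went both ways, also within a role. Notch1 was 2.56-fold and 2.64-fold higher in neurogenic-like cells, whereas Notch3 stood at 0.205 and 0.0980 and Notch2 at 0.390 and 0.528 of the RPC-like level. Rbpj, the nuclear partner of Notch, was 3.01-fold and 3.12-fold higher. Of the genes listed as targets, Hes6 was 7.11-fold and 7.35-fold and Hes5 2.38-fold and 2.52-fold higher. Hes1 stood at 0.105 and 0.110 and Nrarp at 0.868 and 0.770 of the RPC-like level. Whether any of them responded to Notch here was not tested, Hes6 included, so these levels are no measure of Notch signalling. Dner, a further ligand, was 16.02-fold and 10.7-fold higher. Of the ligand regulators, Mib1, the ligase that lets ligands be internalised, stood at 1.06 and 1.12, and Dtx4, which binds the receptor, at 0.269 and 0.279. Of 33 genes with enough UMIs, 9 were at least 1.5-fold higher and 8 lower in the pigmented library and 10 higher and 6 lower in the albino library. Of all genes, 20.2% and 20.1% were that much lower. The other Fringe, Rfng, stood at 0.687 and 0.689, so it was not higher there as Lfng and Mfng were.

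The genes with the most similar pattern were sought among 11217 genes by Pearson's r of log2 CPM (10 CPM added) over 25 clusters in each library, 50 points in all that share cells, depth and libraries. Dll1 was most like Mybl1 (0.89), followed by Zc3h12c, Rbpj (0.87), Hspa2 and Notch1 (0.82). Dll4 was most like Sstr2 (0.94), a marker of the neurogenic-like class, followed by Mybl1, Hspa2, Bhlhe22 and Vxn. Dll3 was most like Neurod1 (0.92), a neuronal bHLH factor, followed by Vxn, Btbd17, Wdr66 and Ankrd33b. Lfng was most like Hes5 (0.81), and Mfng most like Gadd45a (0.92), a marker of the same class. Jag1 had no close match, with Lama5 at 0.70 the nearest. Among the 6 genes, r ranged from 0.02 (Dll3 and Jag1) to 0.79 (Dll3 and Dll4).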

How the data were processed

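Single-cell RNA was measured in 1 pigmented and 1 albino library, with no replicates. The deposited matrices hold UMI counts per gene and cell. Cell Ranger 2.1.1 and build mm10 are named per the submitters' processing notes, whereas the matrix headers name version 5.0.1. No source used here gives the strand setting of the counting.

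Barcodes with under 500 genes (134 pigmented and 110 albino), over 10% mitochondrial UMIs (188 and 136), or a Scrublet doublet score above 0.25 (146 and 56) were left out. That score was set after Scrublet's automatic thresholds were seen, which called 168 and 4 barcodes. Cells were clustered with Scanpy 1.11.5 and leidenalg 0.10.2 (2000 variable genes, 30 components, 15 neighbours, resolution 1). Both libraries were clustered together without batch correction. A cluster was named where at least 3 markers were each detected in at least 10% of its cells and no other class had more markers among its 10 leading genes. Its score also had to be above 0 and to lead the next class by 0.3. Its median UMIs had to reach the median of all kept cells divided by 3.

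Levels are counts per 1000000 UMIs of a class. Ratios were called at 1.5-fold and 50 UMIs over both groups. Intervals are exact (Poisson for levels, Clopper-Pearson for shares, conditional binomial for ratios). Overlap of level intervals does not mean that the interval of their ratio includes 1. The computations were tested on simulated data. With 1 library per group no test between groups was made.

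The genes and lists were chosen with earlier results of these data known. The 6 genes were always named, with up to 4 genes per pathway list by UMIs, and the 5 genes most like each. Alternatives changed the cell filters, doublet calls, clustering, naming margin, sex of the cells, weighting and thinning.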

Additional observations from a re-analysis of the deposited data

How the results depend on the processing

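Few UMIs limit the values of Dll4 in RPC-like and CMZ-like cells and of Lfng in RGC-like cells. Embryo variation is not covered, as each kind of embryo is 1 pool. Over the settings that were clustered, the neurogenic-like class held from 561 to 1060 pigmented and from 318 to 579 albino cells. All log2 ratios of neurogenic-like over RPC-like cells stayed above 0 in every setting run, and all were at least 1.5-fold except Jag1 in the albino library at Leiden resolution 0.5. No paired analysis was possible because there is 1 library per group. Of the values under an alternative that answer a comparison, 243 stayed within the interval of the main value and 74 moved out of it. For 1 more, Dll3 among cells with Xist, a ratio whose interval excluded 1 changed direction. The Dll4 ratio of albino over pigmented neurogenic-like cells, whose interval included 1, was above 0 in 6 of 13 alternatives. The cause was not tested. Lfng in Dll4-positive cells ranged from 0% to 8.04% in the pigmented and from 0% to 3.98% in the albino library.

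With a naming margin of 0.5, the log2 ratio of neurogenic-like over RPC-like cells was Dll1 2.69 (pigmented) and 2.72 (albino), Lfng 1.51 (pigmented), Mfng 3.39 (pigmented) and 3.54 (albino). There, the share with a UMI was Dll4 in Dll3-positive pigmented cells 50%. At Leiden resolution 0.5, the log2 ratio of neurogenic-like over RPC-like cells was Dll1 3.02 (pigmented) and 3.17 (albino), Dll3 3.88 (pigmented) and 3.59 (albino), Jag1 1.11 (pigmented) and 0.58 (albino). There, that of albino over pigmented neurogenic-like cells was Dll4 0.13. At resolution 1.5, the log2 ratio of neurogenic-like over RPC-like cells was Dll1 2.75 (pigmented) and 2.76 (albino), Mfng 3.49 (pigmented) and 3.64 (albino). There, the share with a UMI was Dll4 in Dll3-positive pigmented cells 49.0%. With a higher minimum of genes per cell, the log2 ratio of neurogenic-like over RPC-like cells was Dll1 2.54 (pigmented) and 2.77 (albino), Dll4 6.82 (pigmented). With at most 5% mitochondrial UMIs, the log2 ratio of neurogenic-like over RPC-like cells was Dll1 2.67 (pigmented) and 2.72 (albino), Jag1 1.49 (albino), Mfng 3.44 (pigmented) and 3.62 (albino). There, that of albino over pigmented neurogenic-like cells was Dll4 0.15. With doublets kept, the log2 ratio of neurogenic-like over RPC-like cells was Dll1 2.59 (pigmented) and 2.66 (albino), Dll4 5.40 (albino), Lfng 1.24 (pigmented) and 1.13 (albino), Mfng 3.44 (pigmented) and 3.59 (albino). There, that of albino over pigmented neurogenic-like cells was Dll4 0.11. With Scrublet's automatic thresholds, an alternative chosen after seeing the data, the log2 ratio of neurogenic-like over RPC-like cells was Dll1 2.59 (pigmented) and 2.64 (albino), Jag1 1.45 (albino), Lfng 2.05 (pigmented). Without cell cycle genes in the clustering, the log2 ratio of neurogenic-like over RPC-like cells was Dll1 2.95 (pigmented) and 2.99 (albino), Dll3 3.83 (pigmented) and 3.73 (albino), Jag1 2.67 (pigmented), Lfng 1.13 (pigmented) and 0.87 (albino), Mfng 3.63 (pigmented) and 3.62 (albino). There, that of albino over pigmented neurogenic-like cells was Dll4 0.13. There, the share with a UMI was Dll4 in Dll1-positive albino cells 30%, Dll4 in Dll3-positive albino cells 38.7%. With classes from marker scores, the log2 ratio of neurogenic-like over RPC-like cells was Dll1 2.95 (pigmented) and 3.12 (albino), Dll3 3.90 (pigmented), Dll4 7.39 (pigmented), Jag1 1.65 (pigmented) and 1.22 (albino), Lfng 1.15 (pigmented) and 1.15 (albino). With cells that had Xist and no Y-linked UMI, the log2 ratio of neurogenic-like over RPC-like cells was Dll1 2.48 (pigmented), Dll4 7.54 (pigmented), Jag1 2.68 (pigmented), Mfng 4.005 (pigmented). There, that of albino over pigmented neurogenic-like cells was Dll3 0.040 (reversed), Dll4 -0.27, Mfng -0.25. There, the share with a UMI was Dll3 in Dll1-positive pigmented cells 17.6%, Dll4 in Dll3-positive pigmented cells 47.1%. Without thinning, the share with a UMI was Dll3 in Dll1-positive pigmented cells 32.1%, Dll3 in Dll1-positive albino cells 28.2%, Dll4 in Dll1-positive pigmented cells 38.3%, Dll4 in Dll1-positive albino cells 36.6%, Dll4 in Dll3-positive pigmented cells 48.1%, Dll4 in Dll3-positive albino cells 42.4%. Counting cells with at least 2 UMIs, without thinning, the share with a UMI was Dll3 in Dll1-positive pigmented cells 17.5%.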
